A study of Mus musculus with 6 samples.

Results

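The genes of fatty acid uptake and mitochondrial beta-oxidation, 37 of the 24346 gene symbols in the deposited tables, were followed in condylar cartilage, the growth cartilage that caps the lower jaw at its joint. They were taken by symbol from a list of known pathway genes, a pathway picked with earlier results of these data in view. By role, 6 act in uptake, activation and lipid droplets, 7 in the carnitine shuttle and its control by malonyl-CoA, 17 in beta-oxidation, electron transfer and the handling of acyl-CoA, 5 are regulators and 2 are uncoupling proteins. Dissected cartilage of fl/fl mice, the usual notation for a floxed gene, formed the control group (3 libraries). Cartilage of mice with a deletion of Ihh, the gene for Indian hedgehog, in craniofacial neural crest cells formed the mutant group (3 libraries). Descriptions of the mutant libraries speak of both mutant groups without saying how these differ. The labels name neither the Cre driver nor the age, sex or number of animals behind a library, so p-values measure the spread between these libraries, which may be partly technical. Values were FPKM, which is fragments scaled to transcript length and library depth.

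Fatty acids reach a cell from lipoproteins or albumin, are bound in the cytosol and are activated to acyl-CoA. Long-chain acyl groups then cross into mitochondria as carnitine esters, and each turn of beta-oxidation shortens the chain by dehydrogenation, hydration, a second dehydrogenation and thiolysis, with electrons passed on by flavoproteins. Heart, oxidative skeletal muscle and brown fat carry the pathway at high levels, whereas chondrocytes lie in tissue without vessels and draw mainly on glycolysis.

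Ihh itself measured 3.73, 2.51 and 3.74 FPKM in controls 1 to 3 against 2.18, 2.33 and 2.66 FPKM in mutants 1 to 3 (limma adjusted p = 0.724), while its target Gli1 was at 7.10 to 9.53 FPKM in controls and 0.168 to 0.807 FPKM in mutants (adjusted p = 0.0152). The 12 cartilage markers checked, led by Col2a1, summed to 452 to 514 FPKM in controls and 209 to 257 FPKM in mutants, so cartilage RNA was present throughout and 5 of them were called lower. For 9 of the 12 every mutant was below every control, and 2 overlapped. The remaining gene, Comp, went the other way, at 22.6, 12.9 and 9.19 FPKM in controls against 37.4, 23.0 and 91.9 FPKM in mutants (limma adjusted p = 0.173). Xist, the transcript of the inactive X chromosome, was at 29.5 and 29.2 FPKM in controls 1 and 2 and at 0.577 to 0.984 FPKM in the other libraries, so the libraries with Xist were found among the controls alone. Olfactory receptor genes, largely silent outside the nose, had a 90th percentile of 6.49 to 8.69 FPKM, and lower values are called within the silent range here. The kit keeps no strand, so the values of Fabp3, Acsl1, Crat, Acadvl, Hadha, Echs1, Eci2, Etfdh, Esrra and Ucp2, whose exons overlap a gene on the other strand, and of Cpt1b, Etfb and Esrra, which overlap one on the same strand, may hold reads of that gene.

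Most fatty acid genes stood higher in mutant than in control cartilage. Of the 36 members tested, 12 rose and none fell (limma, Benjamini-Hochberg adjusted p below 0.05 over all 18715 genes tested), where 0.775% of all genes tested rose and 0.465% fell. These 12 were Cd36, Fabp3, Acsl1 and Plin5 of uptake and droplets, Slc25a20 and Crat of the carnitine shuttle, Acadvl, Acadl, Acadm, Hadh and Acaa2 of beta-oxidation, and the uncoupling protein Ucp3. Their ratios of mutant to control mean FPKM ran from 2.53 to 19.3. In 28 of the 36 all 3 mutant values lay above all 3 control values, as in 9.77% of all genes tested, and in none did they lie below, as in 9.40% of all genes tested. The median log2 fold change, here and below on the scale of log2(FPKM + 1), was 1.32 for the members and 0.0 for all genes tested. In this fit the unadjusted limma p was below 0.05 for 32 of the 36 and for 2630 of all 18715 genes tested. Each tested member reached 1 FPKM in at least 5 libraries, so none entered the test through the mutants alone.

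**Figure D1:**
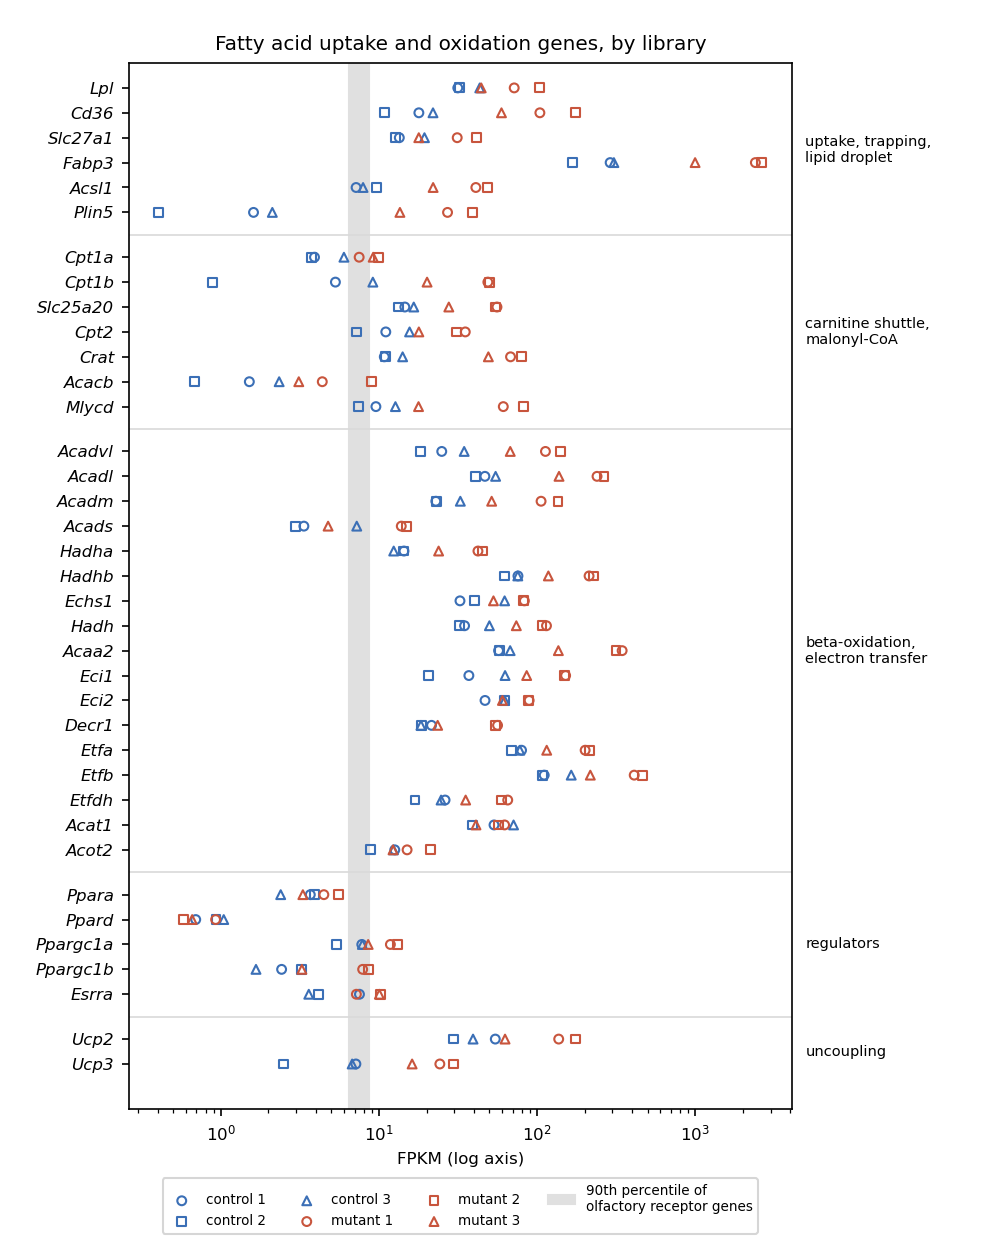
FPKM of the 37 genes in each library on a log axis, with controls in blue, mutants in red and the symbol shape giving the replicate number. The grey band spans the 90th percentiles of olfactory receptor genes, 6.49 to 8.69 FPKM, and the mutant 3 triangle is the lowest mutant point for 34 genes.

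The calls depended on single libraries. Without mutant 3, 23 members rose, 12 of them the same as before, while calls over all genes tested went from 232 to 414. With any other library left out the count of members was smaller. It was 10 without control 3, of which 8 were among the 12, and 3 without mutant 2 (Crat, Plin5 and Acadl). It was 2 without control 2 (Crat and Plin5) and 1 without control 1 or mutant 1 (Crat). Calls over all genes tested fell in the same fits, to 199 without control 3 and 57 without mutant 2. They were 20 without control 2, 13 without control 1 and 19 without mutant 1. With Xist as a covariate no member was called by limma, at adjusted p of 0.106 to 0.372 for the 12, and 2 of all genes tested were called. Of the 36 members, 24 had an unadjusted p below 0.05 in that fit. The same count was not taken over all genes tested there, so the 24 have no background share beside them. With controls 1 and 2 left out, which were the controls with Xist, the members' median log2 fold change was 1.13. The single control left there was assumed to vary like the mutants. Slc25a20, Acadm, Hadh and Ucp3 also lost their call in further fits. These used a pseudocount of 0.1, no filter on low values or moderation that was not robust. Each left 8 members called, with 167, 133 and 171 calls over all genes tested, in that order.

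Skeletal muscle transcripts moved with the same groups. The summed FPKM of 16 general muscle genes, among them Acta1 (muscle actin), Tnnc2 (fast troponin C) and Ckm (muscle creatine kinase), was 2875 to 6510 in controls and 13100 to 24210 in mutants, with all 16 higher in every mutant than in every control and 12 called. In a bulk library, more muscle cells and more RNA per muscle cell cannot be told apart. With the mean of the 3 muscle lists (38 genes) as a covariate no member was called by limma. There 6 members had an unadjusted p below 0.05, a count not taken over all genes tested. In that fit 10 members turned from positive to negative, and the members' median log2 fold change was 0.29. Calls over all genes tested went from 232 to 3. A fit with the 16 general muscle genes alone as the covariate was added after the data were seen. There 23 of the 36 turned from positive to negative, among them the called genes Cd36, Slc25a20, Acadvl, Acadm and Ucp3. No member was called by limma, and the median was -0.23. An unadjusted p below 0.05 was found for 2 members, again without a count over all genes tested. Calls over all genes tested were again 3. The mean of the 3 lists was at most 6.0 in any control and at least 6.36 in any mutant. For the general muscle genes these limits were 6.11 and 7.12. Both covariates thus followed the groups, and these fits could not clearly separate muscle from group. The part of muscle in the change was not tested. The members' mean level minus the mean of the 3 muscle lists came to -1.57, -1.34 and -1.66 log2 units in the 3 controls in order and to -1.40, -1.27 and -1.43 in the 3 mutants. Minus the mean of the general muscle genes alone it came to -1.70, -1.50 and -1.78 in controls and to -2.12, -2.12 and -2.18 in mutants. The first difference overlapped between the groups, and the second was lower in every mutant, so the comparison with muscle depended on the muscle list.

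Library by library, the fatty acid genes and the muscle genes stood in the same order. The mean of the 37 members was 4.12, 3.81 and 4.33 log2 units in controls 1 to 3 against 5.70, 5.88 and 4.93 in mutants 1 to 3, and that of the general muscle genes was 5.82, 5.31 and 6.11 and then 7.82, 8.0 and 7.12. Control 2 was lowest and mutant 2 highest for both. Mutant 3 was the lowest mutant for 34 of 37 members and all 16 general muscle genes, against 34.5% of all genes tested. It was also the lowest mutant for all 10 macrophage genes and 6 of 7 erythroid genes. Its value was at a median of 53.5% of the mean of mutants 1 and 2 for members, 57.6% for general muscle genes and 97.6% for all genes tested.

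By the ratio of mean FPKM the 2 largest folds belonged to Plin5 and Fabp3, of droplets and uptake, whereas on the log2 scale uncalled Cpt1b lay between them. Fabp3, the cytosolic fatty acid-binding protein of heart and muscle, was the most abundant member, at 290, 167 and 306 FPKM in controls 1 to 3 against 2404, 2642 and 999 FPKM in mutants 1 to 3. Every mutant lay at least 3-fold above the highest control, and the gene rose by 2.91 ± 0.38 log2 units (SE; limma adjusted p = 0.0167). The Fabp3 gene lies on chromosome 4 from 130308595 to 130315463 on the plus strand (GRCm38), and Zcchc17 and Gm10570 are the genes its exons overlap. Cd36, the membrane fatty acid translocase, measured 17.9, 10.8 and 21.96 FPKM in controls against 104, 175 and 59.5 FPKM in mutants. The groups were well apart, and Cd36 rose by 2.59 ± 0.39 log2 units (limma adjusted p = 0.025).

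Plin5, which coats lipid droplets and tethers them to mitochondria, had the largest fold on either scale. It measured 1.61, 0.405 and 2.12 FPKM in controls against 27.1, 39.2 and 13.6 FPKM in mutants. All controls lay in the silent range and all mutants above it, so the ratio of means of 19.3 rests on a denominator near background. The change was 3.50 ± 0.43 log2 units (limma adjusted p = 0.0157). Acsl1, the acyl-CoA synthetase that activates long-chain fatty acids, measured 7.17, 9.68 and 7.93 FPKM in controls against 41.0, 48.3 and 22.001 FPKM in mutants, a rise of 1.98 ± 0.30 log2 units (limma adjusted p = 0.025). Leaving out control 1, control 2, mutant 1 or mutant 2 ended the calls of Fabp3, Cd36 and Acsl1, at adjusted p of 0.0526 to 0.102. For Plin5 the call ended without control 1 (0.0683) or mutant 1 (0.0689).

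The other uptake genes differed less. Lpl, the lipase that frees fatty acids from lipoproteins, measured 31.5, 32.5 and 43.4 FPKM in controls against 71.7, 104 and 44.3 FPKM in mutants (limma adjusted p = 0.183). Mutant 3 was just above control 3. For Slc27a1, a fatty acid transport protein, values were 13.4, 12.7 and 19.4 FPKM in controls against 31.2, 41.4 and 17.9 FPKM in mutants (adjusted p = 0.231), and mutant 3 lay below control 3. Lpl was called only without mutant 3 among the fits that left out 1 library (0.0448).

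Carnitine shuttle genes were separated between the groups for all 7 members, and 2 of them passed the test. Crat, the mitochondrial carnitine acetyltransferase that exports acetyl groups, measured 10.8, 11.0 and 14.1 FPKM in controls against 67.9, 79.3 and 49.2 FPKM in mutants. The lowest mutant was more than 3-fold above the highest control. Crat rose by 2.34 ± 0.23 log2 units (limma adjusted p = 0.00943) and was the only member called with any single library left out (adjusted p up to 0.0469). Its values fitted 4, 4 and 7 fragments in controls and 25, 35 and 19 in mutants, but with a deviation of 0.098 fragments, beside at most 0.003 for the other members that could be fitted, so these numbers are uncertain. Slc25a20, the carnitine-acylcarnitine exchanger of the inner membrane, measured 14.6, 13.3 and 16.6 FPKM in controls against 55.8, 54.4 and 27.7 FPKM in mutants, a rise of 1.51 ± 0.28 log2 units (limma adjusted p = 0.0453). The call was lost with any library but mutant 3 left out (0.0734 to 0.151).

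Cpt1b, the muscle form of the outer-membrane carnitine palmitoyltransferase that sets the rate of entry, measured 5.30, 0.881 and 9.14 FPKM in controls against 48.8, 50.02 and 20.1 FPKM in mutants. The fold of means of 7.76 was among the larger ones, but the controls spread over a 10-fold range and the gene did not pass (log2 fold change 2.94 ± 0.59, limma adjusted p = 0.0571). It was called without control 3 (0.0428) or mutant 3 (0.0366). Its values in controls 1 and 2 lay in the silent range. Cpt1a, the form of liver and most other tissues, measured 3.91, 3.76 and 6.001 FPKM in controls against 7.49, 9.90 and 9.19 FPKM in mutants (adjusted p = 0.175). All its controls and mutant 1 lay in the silent range. Mutant 3 was not the lowest mutant for Cpt1a, nor for Esrra and Ppard, unlike the other members. Cpt2, the inner-membrane enzyme that returns acyl groups to CoA, measured 11.0, 7.19 and 15.6 FPKM in controls against 35.1, 30.8 and 17.9 FPKM in mutants (adjusted p = 0.116). The spacing of its values fitted whole fragments of 17, 11 and 32 in controls against 54, 57 and 29 in mutants, which shows how few fragments stand behind values of this size.

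Malonyl-CoA, which inhibits Cpt1, is made at the mitochondrial surface by Acacb and removed by Mlycd. Both stood higher in every mutant, and neither passed. Mlycd measured 9.56, 7.40 and 12.7 FPKM in controls against 61.1, 82.3 and 17.8 FPKM in mutants (limma adjusted p = 0.0827). Mutant 3, at 24.8% of the mean of mutants 1 and 2, was the lowest such share among the members, and without it Mlycd was called (adjusted p = 0.00661). Acacb measured 1.51, 0.677 and 2.34 FPKM in controls against 4.38, 8.96 and 3.11 FPKM in mutants (adjusted p = 0.188), below the silent-gene percentile in every library but mutant 2.

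**Figure D2:**
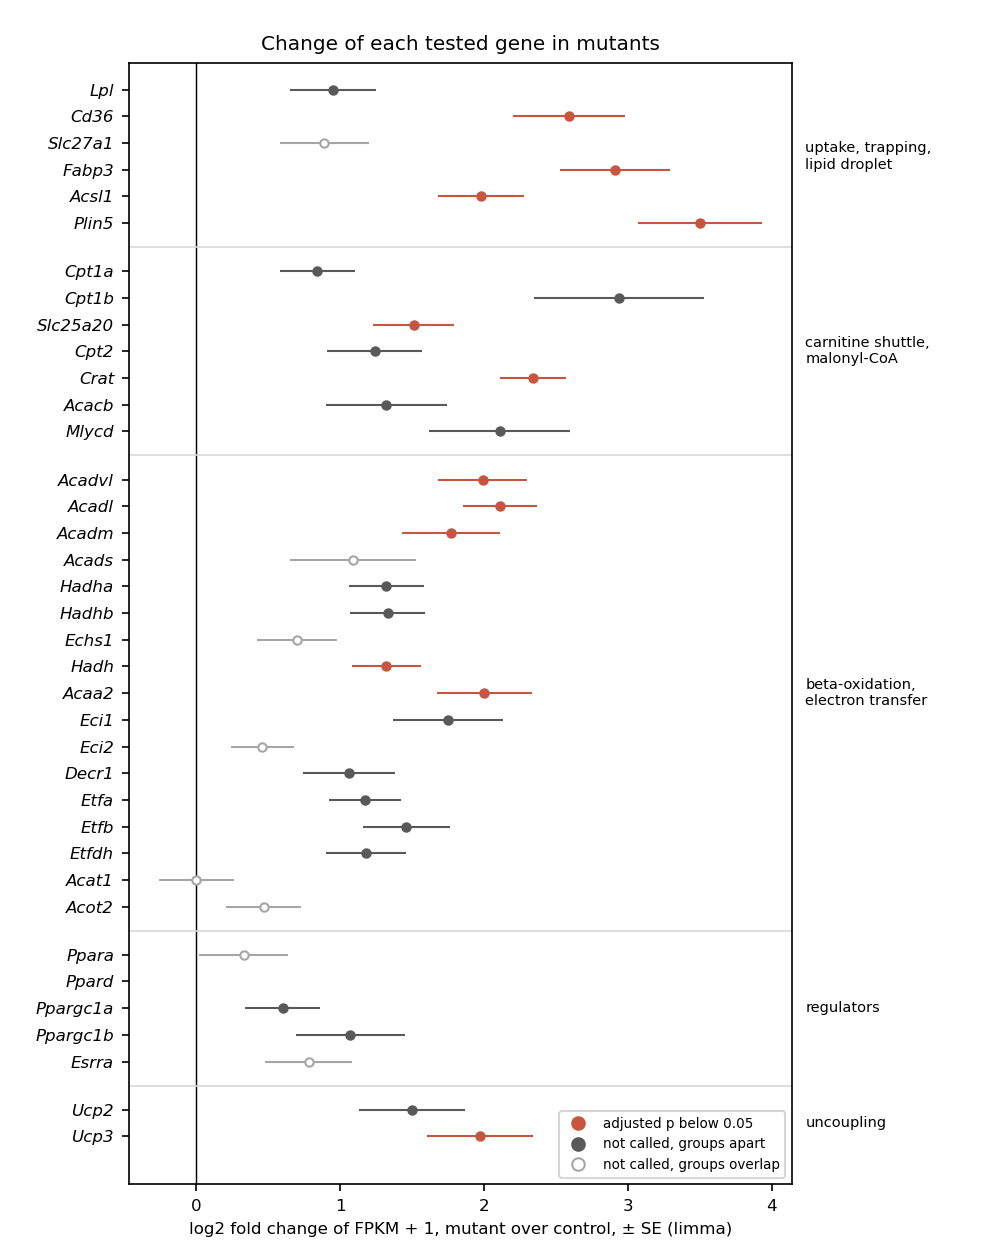
Log2 fold change of FPKM + 1 in mutants against controls for the 36 tested genes, with the standard error of the limma fit as bars. Red points are the 12 called genes, filled grey points are uncalled genes whose groups did not overlap, and open points are those whose groups overlapped, with Acat1 at 0; Ppard was not tested.

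Among the acyl-CoA dehydrogenases, which open each turn of beta-oxidation and differ in the chain length they take, the 3 enzymes for very long, long and medium chains rose. Acadl measured 46.8, 40.6 and 54.7 FPKM in controls against 240, 265 and 138 FPKM in mutants, a rise of 2.11 ± 0.26 log2 units (limma adjusted p = 0.0157). Acadvl measured 24.9, 18.4 and 34.6 FPKM in controls against 113, 141 and 67.7 FPKM in mutants (1.99 ± 0.31 log2 units, limma adjusted p = 0.027). Acadm, whose loss causes the commonest inherited defect of the pathway, measured 22.9, 23.0 and 32.7 FPKM in controls against 106, 136 and 51.6 FPKM in mutants (1.77 ± 0.34 log2 units, limma adjusted p = 0.0466). In all 3 genes every mutant was above every control. Acads, the short-chain enzyme, did not pass, at 3.35, 2.95 and 7.23 FPKM in controls against 13.8, 14.98 and 4.76 FPKM in mutants (adjusted p = 0.309), with whole fragments of 8, 7 and 23 and of 33, 43 and 12. Mutant 3 fell among the controls for Acads alone of these dehydrogenases. Calls ended for Acadl on leaving out control 1, control 2 or mutant 1 (0.0589 to 0.0709), for Acadvl on leaving out any of these or mutant 2 (0.0787 to 0.114), and for Acadm on leaving out any library but mutant 3 (0.0637 to 0.156).

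The mitochondrial trifunctional protein, which carries out the last steps for long chains, has its subunits encoded by Hadha and Hadhb. These genes lie head to head on chromosome 5, Hadha on the minus strand from 30118304 to 30155162 and Hadhb on the plus strand from 30155248 to 30184593, with 85 bases between their annotated starts. Hadha measured 14.4, 14.3 and 12.4 FPKM in controls against 42.3, 45.0 and 23.8 FPKM in mutants, and Hadhb 75.7, 61.9 and 75.5 FPKM and 213, 228 and 118 FPKM. Their changes were of the same size, 1.32 ± 0.26 and 1.33 ± 0.26 log2 units, and neither passed (limma adjusted p = 0.0515 and 0.0517). Without mutant 3 both were called (0.0118 and 0.00882). The stretch between them is shown because the genes start at its 2 ends. It is 69.4% G and C and held none of the motifs named below (GRCm38.p6, chr5:30155163-30155247, plus strand, letters from RefSeq).

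Hadha-Hadhb: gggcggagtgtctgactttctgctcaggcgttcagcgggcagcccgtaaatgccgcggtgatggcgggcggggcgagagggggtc

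Of the matrix enzymes for shorter chains, Hadh and Acaa2 rose and Echs1 did not pass. Hadh, the 3-hydroxyacyl-CoA dehydrogenase, measured 34.8, 32.4 and 49.9 FPKM in controls against 115, 107 and 73.9 FPKM in mutants, a rise of 1.32 ± 0.24 log2 units (limma adjusted p = 0.0424). Acaa2, the thiolase that releases acetyl-CoA, measured 57.1, 58.0 and 67.6 FPKM in controls against 345, 316 and 136 FPKM in mutants, a rise of 2.0 ± 0.33 log2 units (limma adjusted p = 0.0301). Both were clear of the controls in every mutant. Echs1, the enoyl-CoA hydratase, measured 32.5, 40.4 and 62.3 FPKM in controls against 83.1, 81.7 and 53.0 FPKM in mutants (adjusted p = 0.296), with mutant 3 below control 3. The call of Hadh ended on leaving out control 1, control 2, mutant 1 or mutant 2 (0.13 to 0.151), and that of Acaa2 on leaving out any of these or control 3 (0.0536 to 0.117).

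Unsaturated fatty acids need auxiliary enzymes that move or reduce double bonds. Eci1, an enoyl-CoA isomerase of mitochondria, measured 37.03, 20.6 and 62.7 FPKM in controls against 152, 149 and 85.9 FPKM in mutants (limma adjusted p = 0.0678). Decr1, the 2,4-dienoyl-CoA reductase, measured 21.5, 18.6 and 18.4 FPKM in controls against 56.2, 54.3 and 23.5 FPKM in mutants (adjusted p = 0.162), so that mutant 3 stood just above the controls. Eci2, an isomerase found in peroxisomes as well, measured 46.9, 62.0 and 62.3 FPKM in controls against 89.1, 88.4 and 60.4 FPKM in mutants (adjusted p = 0.404). The groups were apart for Eci1 and Decr1 and overlapped for Eci2. Eci1 was called without control 3 (0.0396) or mutant 3 (0.0435), and Decr1 without mutant 3 (0.0145).

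Electrons from the dehydrogenases pass through the electron transfer flavoprotein, made of Etfa and Etfb, to its oxidoreductase Etfdh. Etfb measured 111, 109 and 164 FPKM in controls against 412, 467 and 217 FPKM in mutants (limma adjusted p = 0.0598). Etfa measured 79.8, 69.1 and 77.8 FPKM in controls against 201, 215 and 115 FPKM in mutants (0.0625), and Etfdh 26.2, 16.9 and 24.7 FPKM and 65.2, 59.2 and 35.3 FPKM (0.0829). None of these 3 genes passed, although no mutant value reached down to a control value. Without mutant 3 all of them were called (adjusted p of 0.0106 to 0.0292).

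Acat1 and Acot2 overlapped between the groups. Acat1, the acetoacetyl-CoA thiolase of ketone body and isoleucine metabolism, measured 53.4, 38.9 and 71.0 FPKM in controls against 62.3, 57.3 and 41.1 FPKM in mutants, with a log2 fold change of 0.0 ± 0.26 (limma adjusted p = 0.998). Mutant 3 was lower than controls 1 and 3. Acot2, a matrix thioesterase that splits acyl-CoA, measured 12.6, 8.80 and 12.3 FPKM in controls against 15.1, 21.2 and 12.3 FPKM in mutants (adjusted p = 0.488). Acot1, a near-identical cytosolic copy, measured 4.12, 4.15 and 2.71 FPKM and 10.8, 15.9 and 4.89 FPKM (0.192), and the sources used here do not say how reads were split between such copies, so both values are uncertain.

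Regulators of the pathway were low. None of the 4 tested was called by limma, and 3 had an unadjusted p below 0.05, beside 2630 of all 18715 genes tested. Ppara, the nuclear receptor that fatty acids activate in liver and muscle, was at 2.39 to 3.90 FPKM in controls and 3.30 to 5.55 FPKM in mutants (limma adjusted p = 0.737), and Ppard at 0.693 to 1.04 and 0.577 to 0.926 FPKM, too low to be tested. Both lay below the silent-gene percentile in every library. Ppard rested on 3, 4 and 6 whole fragments in controls and 4, 3 and 3 in mutants, as the smallest numbers that fit, so no difference of moderate size was detectable at this depth. Ppargc1a, the coactivator PGC-1alpha of mitochondrial biogenesis, measured 7.78, 5.37 and 7.85 FPKM in controls against 11.8, 13.1 and 8.54 FPKM in mutants (adjusted p = 0.334). Its relative Ppargc1b measured 2.42, 3.25 and 1.67 FPKM in controls against 7.88, 8.57 and 3.25 FPKM in mutants (0.237). For Esrra, the estrogen-related receptor that PGC-1alpha coactivates, values were 7.52, 4.13 and 3.60 FPKM in controls against 7.20, 10.3 and 10.1 FPKM in mutants (0.282). The groups of Ppargc1a and Ppargc1b were apart by narrow margins in mutant 3, and those of Esrra overlapped.

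Uncoupling proteins sit in the inner mitochondrial membrane, and Ucp2 and Ucp3 are neighbours on chromosome 7. Ucp3, the form of skeletal muscle, measured 7.14, 2.50 and 6.77 FPKM in controls against 24.3, 29.7 and 16.2 FPKM in mutants, a rise of 1.97 ± 0.37 log2 units (limma adjusted p = 0.045). It lies from 100472990 to 100486432 on the plus strand and was called without mutant 3 but not without any other library (0.059 to 0.151). Its values in controls 1 and 2 lay in the silent range. Ucp2, the widely expressed form, measured 54.4, 29.7 and 39.3 FPKM in controls against 137, 174 and 62.7 FPKM in mutants (adjusted p = 0.0976, and 0.0146 without mutant 3). Every mutant was above every control for both genes.

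Paired forms of the same protein were compared within each library, as ratios of FPKM + 1. Adding 1 damps the ratios of low genes such as Acacb and Cpt1a, and of Cpt1b and Ucp3 in controls 1 and 2. The log2 ratio of Cpt1b to Cpt1a was 0.36, -1.34 and 0.54 in controls against 2.55, 2.23 and 1.05 in mutants, a difference of 2.09. Fabp3 over Fabp5, the widely expressed binding protein, was 1.21, 0.59 and 0.82 in controls against 4.35, 5.04 and 3.85 in mutants, a difference of 3.54. Acacb over Acaca, the cytosolic carboxylase of fatty acid synthesis, was -1.76, -2.41 and -1.52 in controls against 0.01, 1.03 and -0.60 in mutants, a difference of 2.04. These 3 ratios did not overlap between the groups. For Ucp3 over Ucp2 the ratio was -2.77, -3.13 and -2.38 in controls against -2.45, -2.51 and -1.89 in mutants, a difference of 0.47, and the groups overlapped. An exact two-sided permutation test gave p = 0.1 for the first 3, the smallest that 3 against 3 libraries allow, and p = 0.3 for Ucp3 over Ucp2 (adjusted over the 4 ratios, 0.133 and 0.3).

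**Figure D3:**
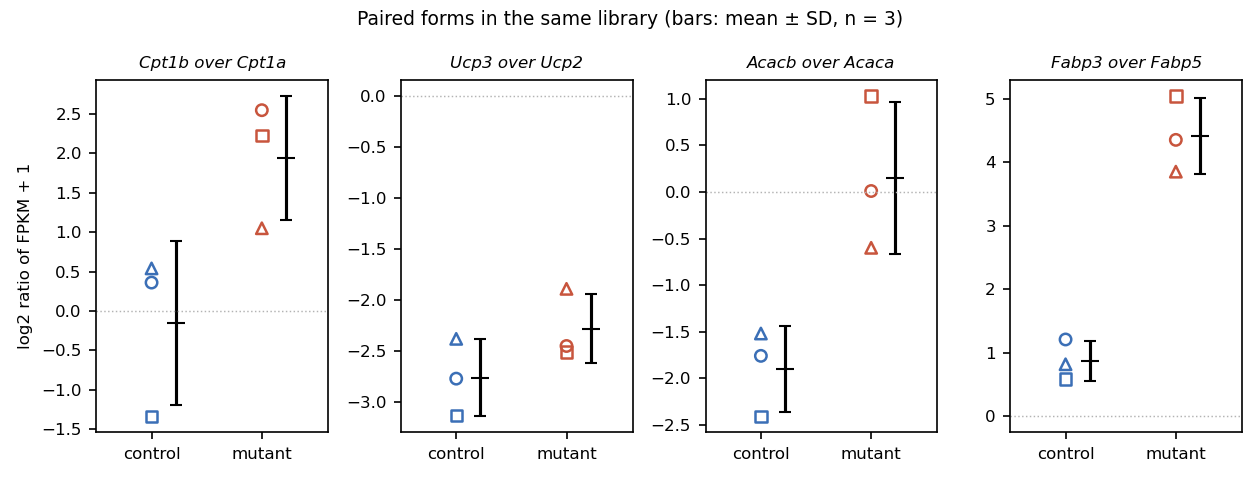
Log2 ratio of FPKM + 1 between paired forms in each library, with symbol shapes as in the plot of values by library and bars for the mean and SD of 3 libraries. Cpt1b over Cpt1a, Acacb over Acaca and Fabp3 over Fabp5 are higher in every mutant than in every control, and Ucp3 over Ucp2 overlaps.

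Outside the 37, the wider pathway was described from further lists. Of 79 tested genes of other uptake and activation steps, triglyceride breakdown, peroxisomal oxidation, other acyl-CoA enzymes and fuel switching, 5 rose (6.33%, beside 0.775% of all genes tested) and none fell, with a median log2 fold change of 0.22. Pdk4, the kinase that shuts glucose carbon out of the mitochondrion and a target of the PPARs, rose from 10.1, 10.4 and 9.66 FPKM in controls to 92.8, 181 and 34.4 FPKM in mutants (limma adjusted p = 0.0319). Pdk2, a kinase of the same family, rose and was at 15.3 to 26.2 FPKM in controls and 56.2 to 123 FPKM in mutants (0.023). Pnpla2, the first lipase of stored triglyceride, rose and was at 4.91 to 8.18 FPKM in controls and 21.5 to 91.4 FPKM in mutants (0.0377). Perm1, a muscle regulator downstream of PGC-1alpha, rose and was at 0.964 to 3.31 FPKM in controls and 8.35 to 20.1 FPKM in mutants (0.0301). All controls and mutant 3 lay in the silent range for Perm1. Got2, an aminotransferase also reported as a fatty acid-binding protein, rose and was at 38.0 to 58.0 FPKM in controls and 97.6 to 179 FPKM in mutants (0.0377). In each of these 5 genes all mutants were above all controls and mutant 3 was the lowest mutant.

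The 16 other genes of uptake and activation were split in direction, 6 positive and 10 negative, with a median log2 fold change of -0.18. Angptl4, a secreted inhibitor of Lpl, measured 4.10, 14.05 and 9.56 FPKM in controls against 69.5, 117 and 25.7 FPKM in mutants (limma adjusted p = 0.0586). Gpihbp1, which holds Lpl on capillary walls, measured 34.3, 19.03 and 54.1 FPKM and 75.7, 116 and 74.0 FPKM (0.108), and Fabp4, of fat and capillary endothelium, 112, 61.5 and 291 FPKM and 621, 669 and 293 FPKM (0.131). All mutants were above all controls for Angptl4, Gpihbp1 and Fabp4, and mutant 3 was close to control 3 for Fabp4.

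Peroxisomes shorten very long and branched chains by enzymes of their own. None of the 14 genes of peroxisomal oxidation was called by limma, 5 had an unadjusted p below 0.05, and the median log2 fold change was 0.28. Phyh, which starts alpha-oxidation of branched chains, measured 19.8, 19.9 and 31.0 FPKM in controls against 63.9, 61.3 and 32.3 FPKM in mutants (limma adjusted p = 0.129). Amacr, a racemase for branched acyl-CoA, was lower in every mutant, at 9.41, 11.2 and 19.9 FPKM and 7.95, 4.65 and 5.30 FPKM (0.175). Whether the peroxisomal and mitochondrial genes differ in their change was not tested.

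A few genes of lipid and ketone use stood lower in mutants without passing. The ketone body enzymes Oxct1 (42.1, 48.6 and 50.8 FPKM in controls against 26.6, 31.5 and 25.2 FPKM in mutants, limma adjusted p = 0.0967) and Bdh1 (5.53, 8.21 and 10.3 FPKM and 3.38, 3.995 and 3.65 FPKM, 0.172) were below every control in every mutant. So were the transporter Slc27a3 (17.2, 20.8 and 23.1 FPKM and 11.2, 5.91 and 8.98 FPKM, 0.0689), Acaca (7.49 to 8.59 and 3.87 to 5.23 FPKM, 0.199) and the hypoxia-induced kinase Pdk1 (18.6 to 21.7 and 9.89 to 14.5 FPKM, 0.217). Their relatives Slc27a1, Acacb and Pdk4 had higher means in mutants, with mutant 3 below control 3 for Slc27a1.

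The tricarboxylic acid cycle, which burns the acetyl-CoA that beta-oxidation yields, had positive log2 fold changes in all 18 genes, with a median of 1.01. Sdha, a subunit of succinate dehydrogenase, measured 63.2, 39.9 and 57.0 FPKM in controls against 132, 159 and 91.6 FPKM in mutants (limma adjusted p = 0.06). Mutant 3 was the lowest mutant for all 18 genes.

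Genes of slow or oxidative fibres were mixed in direction, with 7 positive and 5 negative, and genes of fast fibres were not. All 10 fast-fibre genes had a positive log2 fold change, 7 with every mutant above every control, and 3 rose. Among them was Myh1, a myosin heavy chain of fast fibres, at 30.1 to 51.8 FPKM in controls against 188 to 472 FPKM in mutants. Of 12 genes of slow or oxidative fibres 1 rose, Myoz2, a Z-disc gene, at 7.41 to 19.9 FPKM in controls against 39.1 to 101 FPKM in mutants. Mb, the oxygen-binding myoglobin of oxidative fibres, measured 75.0, 31.6 and 59.1 FPKM in controls against 358, 534 and 126 FPKM in mutants (limma adjusted p = 0.0604). The slow troponin T gene Tnnt1 measured 20.4, 9.41 and 41.4 FPKM in controls against 96.0, 47.4 and 52.2 FPKM in mutants (adjusted p = 0.162). Like Mb, Tnnt1 and Csrp3 (0.106) were higher in every mutant without passing. Of the same list 3 genes stood lower in every mutant than in every control without passing (0.06 to 0.175). These were the slow light chain Myl2, the slow troponin C gene Tnnc1, listed at 0 in mutants 2 and 3, and Tpm3. Slow myosin Myh7 was at 0.564 to 2.74 FPKM, within the silent range, in every library.

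The summed FPKM of 12 fat markers was 37.7 to 76.0 in controls and 72.1 to 97.1 in mutants, which overlapped. Adipoq (adiponectin) was at 0.679 to 10.2 FPKM in controls and 3.22 to 16.3 FPKM in mutants, above the silent range in control 3 and mutant 1, and Cidea, of brown fat, at 2.91 to 9.84 FPKM in controls and 8.28 to 15.3 FPKM in mutants, above it in control 3 and mutants 1 and 2. Within the silent range in every library were Plin1 at 0.848 to 4.64 FPKM and the brown fat gene Ucp1 at 0.460 to 6.31 FPKM over all libraries. Cfd was listed at 0 in controls 1 and 2 and mutant 2 but was at 16.5 FPKM in mutant 1, and Retn was listed at 0 in controls 1 and 2. The list's 1 called gene was Plin4, a droplet coat gene that muscle also expresses, at 0.251 to 1.41 FPKM in controls and 4.04 to 11.5 FPKM in mutants. Plin4 lay in the silent range in every library but mutant 2. Endothelial genes summed to 106 to 173 FPKM in controls and 287 to 334 FPKM in mutants, with 3 of 10 called higher. The part of the muscle, fat and endothelial lists in the fatty acid values was not tested.

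**Figure D4:**
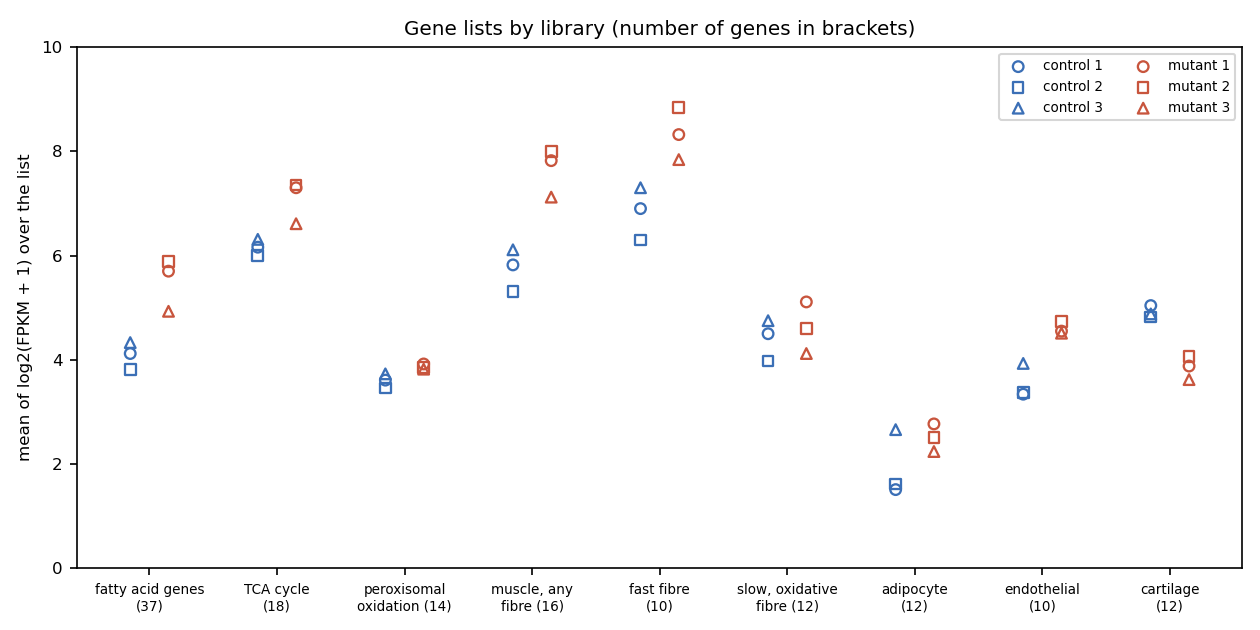
Mean of log2(FPKM + 1) over each gene list in each library, with controls in blue and mutants in red. The fatty acid, TCA cycle, peroxisomal, general muscle, fast muscle and endothelial lists are higher in every mutant than in every control. The slow fibre and adipocyte lists overlap, and the mean of the cartilage list is lower in every mutant, although its gene Comp was higher.

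Promoters of the members were searched for binding motifs, as a description only. RefSeq promoters (250 bases before to 50 after a start, GRCm38.p6) were found for 30 of the 37 members, 34 promoters in all, and each motif was searched on both strands. The nuclear receptor half-site AGGTCA, which PPARs and estrogen-related receptors recognise, was in 9 of 34 member promoters (26.5%) and in 16.3% of all 32851 promoters. The E-box CAGCTG, bound by myogenic factors, was in 10 (29.4%) and in 16.3% of all. No member promoter held the direct repeat of AGGTCA spaced by 1 base, the classical PPAR element (0.0396% of all), the longer estrogen-related receptor element TNAAGGTCA (1.28% of all) or the MEF2 core as TATTTATA or TAAAAATA (4.30% of all). A TNAAGGTCA match is also a half-site match.

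Half-sites occurred before the start of 5 of the 10 called members with a promoter. Uncalled Echs1 and Cpt1a held a half-site before the start too, and the share of all promoters was not counted over these bases alone. A link between half-sites and calls was not tested. The 6 stretches of the called members are shown because these genes were called higher. The half-site, or its reverse complement TGACCT, is in capitals with up to 30 bases on each side, and each is written 5′ to 3′ along the gene's own strand (GRCm38.p6). They lie at chr3:153944857-153944893 (minus strand) for Acadm, chr5:17836089-17836146 (minus) for Cd36, chr7:100472812-100472877 and chr7:100472917-100472982 (plus) for Ucp3, chr11:70015480-70015545 (minus) for Acadvl and chr17:56117683-56117748 (minus) for Plin5. The first base of the motif is 249, 228, 149, 44, 87 and 170 bases before the RefSeq start, in that order.

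Acadm: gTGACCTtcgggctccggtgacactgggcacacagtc
Cd36: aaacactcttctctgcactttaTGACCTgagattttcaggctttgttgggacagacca
Ucp3, distal: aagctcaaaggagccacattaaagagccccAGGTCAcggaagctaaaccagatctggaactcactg
Ucp3, proximal: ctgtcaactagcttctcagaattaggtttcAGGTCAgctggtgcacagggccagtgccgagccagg
Acadvl: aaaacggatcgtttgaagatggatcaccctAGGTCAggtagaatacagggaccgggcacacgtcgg
Plin5: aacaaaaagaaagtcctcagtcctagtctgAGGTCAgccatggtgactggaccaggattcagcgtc

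A match shows only that the letters are present, and binding was not measured. The proximal stretch of Ucp3 begins its motif 44 bases before the start, the nearest of the 6, and its E-box letters overlap the end of that half-site, since both share the bases that follow AGGT. Acadm and Cd36 hold theirs near the far edge of the window.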

How the data were processed

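The 6 libraries were grouped by the labels as 3 controls and 3 mutants. Total RNA was extracted, full-length cDNA was made with a SMART-Seq kit and libraries were made by tagmentation, per the labels' protocols, which keeps no strand. The authors deposited 1 table of FPKM per library, and the unit, which the headers do not name, was taken from Cufflinks in the notes and from fractional values whose sums differ. TopHat2 2.0.13, Bowtie2 2.2.3, SAMtools 0.1.19, Cufflinks 2.2.1 and the build mm10 are named, per the submitters' processing notes, without settings or annotation.

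The members and all gene lists were chosen with earlier results of these data known. The test was limma's moderated test (limma 3.58.1, R 4.3.3, with trend and robust options) of group alone, run on log2(FPKM + 1) of the 18715 genes that reached 1 FPKM in 3 or more libraries. Benjamini-Hochberg adjustment covered all of these, and genes with adjusted p below 0.05 are called. That scale understates the change of low genes. Every member is reported. Of each other pathway list, called genes and up to 4 more with the smallest p could be named, and some of these are not reported here. Of marker lists, those of highest mean could be named, and the other marker genes given, as well as genes named for a paired form, were picked with their values in view. The absolute depth is unknown. The commonest ratio of low values put the totals of controls 2 and 3 at 0.993 and 1.331 times that of control 1, and those of the mutants at 0.998, 1.201 and 1.054 times. Whole fragments are the smallest numbers up to 60 that fit within 0.1 of a fragment. Gene positions came from GENCODE M21 (GRCm38, the build mm10). The fit and the fragment search were tested on simulated data. Alternatives were quantile and median scaling, a pseudocount of 0.1, other filters, moderation that is not robust, array weights, covariates, the replicate block and leaving libraries out.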

Additional observations from a re-analysis of the deposited data

How the results depend on the processing

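The 232 calls over all genes and the 12 among the members became 411 and 18 after quantile normalization, 133 and 8 without a filter on low values, 440 and 18 with a filter at 5 FPKM, 3 and 0 with the mean of the 3 muscle lists as covariate, 3 and 0 with that of the general muscle genes, 2 and 0 with Xist as covariate, and 5 and 0 without the controls that express Xist. Median scaling gave 206 and 11, without Acadm. With 1 library left out they ranged from 13 to 414 and from 1 to 23. The 12 lost their call under these covariates, without the Xist controls and under the block, and the cause was not tested. With the replicate number as a block the limma counts were 2 and 0, at adjusted p of 0.0541 to 0.124 for the 12. In that fit 28 members had an unadjusted p below 0.05, a count not taken over all genes tested. Replicate numbers did not pair the libraries, since deviations of same-numbered libraries correlated at 0.006, -0.016 and -0.009. The replicate block left the paired-form differences at 2.09 for Cpt1b over Cpt1a, 0.47 for Ucp3 over Ucp2, 2.04 for Acacb over Acaca and 3.54 for Fabp3 over Fabp5, with an exact p of 0.25, the smallest that 3 pairs allow. Both muscle covariates were higher in every mutant than in every control, so fits with them could not clearly separate muscle from group. No direction changed among the 36 members except as follows. With the mean of the 3 muscle lists as covariate the log2 fold changes turned to -0.14 for Lpl, -0.33 for Slc27a1, -0.19 for Cpt2, -0.13 for Acacb, -0.05 for Mlycd, -0.81 for Acads, -0.19 for Echs1, -0.03 for Eci1, -0.33 for Acot2 and -0.19 for Ppargc1a. With the general muscle genes as covariate, chosen after seeing the data, they turned to -0.78 for Lpl, -0.10 for Cd36, -1.01 for Slc27a1, -1.23 for Cpt1b, -0.05 for Slc25a20, -0.85 for Cpt2, -0.97 for Acacb, -1.24 for Mlycd, -0.13 for Acadvl, -0.33 for Acadm, -1.78 for Acads, -0.18 for Hadhb, -0.63 for Echs1, -0.85 for Eci1, -0.20 for Eci2, -0.53 for Decr1, -0.16 for Etfa, -0.46 for Etfb, -0.42 for Etfdh, -0.79 for Acot2, -0.59 for Ppargc1a, -0.78 for Ucp2 and -0.26 for Ucp3. Acat1, near 0, turned to 0.03 with array weights and ranged from -0.22 to 0.21 with 1 library left out. Low fragment numbers limit Ppard, Ppargc1b, Esrra and Acads. Values within the silent range occurred in at least 1 library for 14 members. They limit Ppara and Ppard in every library, and Acacb and Ppargc1b in every library but mutant 2. They also limit Cpt1a and Esrra in all controls and mutant 1, and Plin5 in all controls. Cpt1b and Ucp3 lay there in controls 1 and 2, and Acads in controls 1 and 2 and mutant 3. Acsl1 lay there in control 1, and Cpt2, Mlycd and Ppargc1a in control 2.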

Other observations

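Macrophage, erythroid and immediate early genes mark blood, marrow and handling of tissue. None of 10 macrophage genes was called by limma (2 at an unadjusted p below 0.05), with summed FPKM of 127 to 145 in controls and 131 to 280 in mutants. None of 7 erythroid genes was called by limma (1 unadjusted), with sums of 676 to 2801 and 1212 to 2933 FPKM. None of 7 tested immediate early genes was called by limma (3 unadjusted), with sums over the 8 of 97.4 to 121 and 132 to 214 FPKM. The sums of the macrophage and erythroid lists overlapped between the groups, and that of the immediate early genes was higher in every mutant. The part of these lists in the fatty acid values was not tested.

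Mutant 3 was the lowest mutant for 4 of 10 endothelial genes, beside 34 of 37 fatty acid genes, 10 of 10 macrophage genes and 6 of 7 erythroid genes, and the endothelial sums in mutants 1, 2 and 3 were 287, 334 and 290 FPKM. Those sums were 5477, 6054 and 2664 FPKM for the fatty acid genes and 179, 280 and 131 FPKM for the macrophage genes.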
